A study of Canis lupus familiaris with 186 samples.

Results

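The tumors described here are the ends of a ranking of primary canine osteosarcomas by 3 hypoxia marker genes, CA9, NDRG1 and ADM. The tumors were selected on these values. For each gene, counts were scaled to the library total as CPM (counts per 1e6), and log2(CPM + 1) was turned into z-scores across all 186 tumors, and the score of a tumor is the mean of the 3 z-scores. The 25% of tumors with the highest scores (47 high-score tumors) were compared with the 25% with the lowest scores (47 low-score tumors), and the 92 tumors between them are called middle-score tumors. The tumors came from pet dogs with naturally occurring osteosarcoma that were enrolled in the trials COTC021 and COTC022, with 93 dogs from each trial, and were sampled before treatment. Each dog gave 1 library of mRNA from bulk tumor tissue, so a library holds tumor cells together with vessel, immune and other stromal cells. The labels give the trial and the tissue but no treatment, genotype, strain, age or oxygen measurement, and oxygen itself was not measured. The tissue is labelled as primary osteosarcoma, and COL1A1 and COL1A2, the chains of the main collagen of bone, were present in each of the 94 compared tumors, with lowest values of 1522 and 5742 CPM.

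When oxygen is scarce, the prolyl hydroxylases of the EGLN family stop marking HIF-1α for destruction by the VHL complex. The stabilised protein pairs with ARNT and switches on genes for glucose uptake, glycolysis, lactate export, acid handling, red cell and vessel growth factors, collagen modification and the turnover of mitochondria. CA9 is a carbonic anhydrase at the cell surface that handles acid, NDRG1 is a stress-responsive protein that also marks several differentiated cell types, and ADM encodes adrenomedullin, a peptide that dilates vessels and acts on endothelium. On the canine build GSD_1.0, CA9 lies on chromosome 11 from 52500820 to 52506421, NDRG1 on chromosome 13 from 30226181 to 30267635 and ADM on chromosome 21 from 34074331 to 34076606. Osteosarcomas are defined by tumor cells that make bone matrix, and they also contain osteoclasts, the multinucleated cells that resorb bone.

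The high-score tumors comprised 24 from COTC021 and 23 from COTC022, and the low-score tumors 20 and 27. Totals ranged from 6587634 to 21558536 counts per library in the high-score tumors, with a median of 11039277, and from 7285217 to 22797513 in the low-score tumors, with a median of 11688586. The deposited column names of 50 libraries contain "__", and 11 of these were in high-score and 13 in low-score tumors. Genes annotated as ribosomal RNA took a median of 1.86% of counts in the high-score and 2.40% in the low-score tumors. A single high-score library held 52.4% of its counts in these genes, against at most 17.0% in any low-score library, and results without it are given below.

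The 3 genes that chose the tumors are a description and were not tested. The highest score was 2.01 and the lowest -1.25. The lowest score among the high-score tumors was 0.391, just above the highest middle score of 0.366, and the highest score among the low-score tumors was -0.467, next to a middle score of -0.466. CA9 ranged from 0.0497 to 154 CPM in the high-score tumors, with a median of 8.55, and from 0.0544 to 4.58 CPM in the low-score tumors, with a median of 0.974. ADM ranged from 5.48 to 118 CPM in the high-score tumors, with a median of 24.9, and from 0.262 to 7.20 CPM in the low-score tumors, with a median of 2.71. NDRG1 ranged from 23.9 to 279 CPM in the high-score tumors, with a median of 74.5, and from 12.9 to 96.8 CPM in the low-score tumors, with a median of 39.6. For each of the 3 genes, the ranges overlapped.

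The marker genes did not move together in all tumors. Of the 47 high-score tumors, 6 were among the 47 highest for all 3 genes, 25 for 2 genes, 15 for 1 gene and 1 for none. Of the 47 low-score tumors, 1 was among the 47 lowest for all 3 genes, 19 for 2, 26 for 1 and 1 for none. When the tumors were ranked by the other 2 genes alone, the median of CA9 was 5.47 CPM in the 47 highest and 1.58 CPM in the 47 lowest, and that of ADM was 12.9 and 5.01 CPM. NDRG1 did not follow, with 55.1 CPM in the 47 tumors highest for CA9 and ADM and 66.4 CPM in the 47 lowest. In this respect the values go against reading the score as a single quantity, and the groups are therefore named by the score and not by hypoxia.

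**Figure D1:**
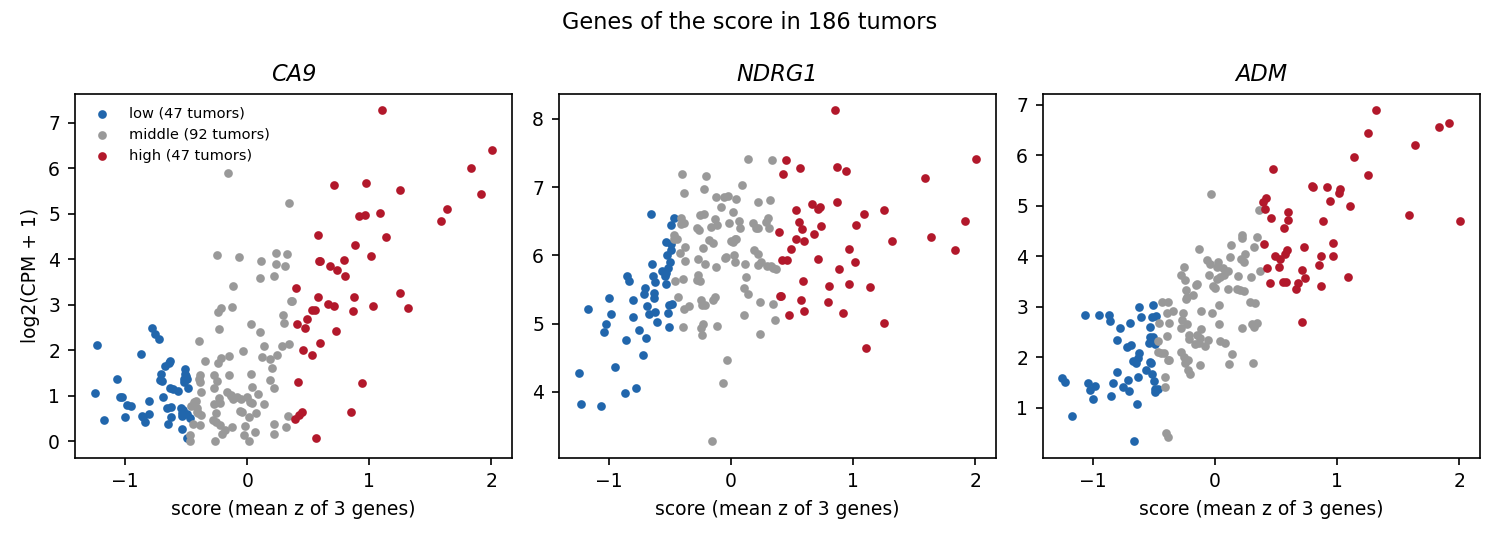
Level of CA9, NDRG1 and ADM as log2(CPM + 1) (y axis) against the score (x axis) in 186 tumors, 1 point a tumor, with 47 low-score tumors in blue, 92 middle-score tumors in grey and 47 high-score tumors in red. In the high-score tumors CA9 lies between 0.0497 and 154 CPM, NDRG1 between 23.9 and 279 CPM and ADM between 5.48 and 118 CPM.

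Genes of glucose uptake, glycolysis and lactate export were higher in the high-score tumors. Expression was compared with limma-voom on the counts, with the trial as a covariate, and a gene was called when its p-value, adjusted over all genes tested by the Benjamini-Hochberg method, was under 0.05. Of 13419 genes tested, 482 were called higher and 486 lower, and 72 of the 968 changed more than 3-fold. DESeq2 called 1072 higher and 634 lower (7.99% and 4.72% of all genes), and edgeR 833 and 546 (6.21% and 4.07%), so the split between directions depended on the test. All 25 genes of the glycolysis list passed the low-count filter, 18 were called higher and 0 lower, where 3.59% of all genes tested were called higher and 3.62% lower. The median log2 fold change of the list was 0.71, against -0.03 over all genes tested. The values below are CPM of the 47 tumors in each group, given as the lowest, the highest and the median. The score, the fold changes and the levels come from the same libraries, so an adjusted p describes how a gene varied with the score among these tumors.

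The lactate exporter SLC16A3, known as MCT4, ranged from 11.5 to 187 CPM, with a median of 52.4, in the high-score tumors and from 1.42 to 51.7 CPM, with a median of 14.9, in the low-score tumors (log2 fold change 2.01 ± 0.17 (SE), adjusted p = 4.24e-16). The levels of 46 of the 47 high-score tumors lay above the low-score median, and 26 lay above every low-score tumor. The glucose transporter SLC2A3 ranged from 26.3 to 1067 CPM, with a median of 151, in the high-score and from 11.0 to 153 CPM, with a median of 46.3, in the low-score tumors (log2 fold change 2.06 ± 0.22 (SE), adjusted p = 4.99e-12). SLC2A1, the more widely expressed transporter, ranged from 13.9 to 410.3 CPM, with a median of 91.5, in the high-score and from 16.5 to 229 CPM, with a median of 51.5, in the low-score tumors (log2 fold change 0.87 ± 0.19 (SE), adjusted p = 0.00137). Both transporters were thus higher, and their ranges overlapped. HK2, the hexokinase that traps glucose in the cell, ranged from 9.55 to 237 CPM, with a median of 42.0, in the high-score and from 4.94 to 77.4 CPM, with a median of 17.4, in the low-score tumors (log2 fold change 1.37 ± 0.22 (SE), adjusted p = 7.95e-06).

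The enzymes of the lower pathway showed smaller differences at higher levels. The phosphoglycerate mutase PGAM1 ranged from 389 to 2312 CPM, with a median of 770.5, in the high-score and from 239.9 to 1164 CPM, with a median of 465, in the low-score tumors (log2 fold change 1.00 ± 0.11 (SE), adjusted p = 8.21e-11), and 45 of 47 high-score tumors lay above the low-score median. The enolase ENO1 had medians of 1246 and 799 CPM (log2 fold change 0.98 ± 0.13 (SE), adjusted p = 1.85e-08), and LDHA, the subunit of lactate dehydrogenase that favours lactate, had medians of 837 and 523 CPM (log2 fold change 0.85 ± 0.11 (SE), adjusted p = 2.53e-08). The aldolase ALDOC had medians of 33.9 and 17.7 CPM (log2 fold change 1.05 ± 0.21 (SE), adjusted p = 0.000545). The other called members were PGK1, PFKP, PFKFB3, PFKL, SLC16A1, PKM, GPI, GAPDH, PDK1 and TPI1, with log2 fold changes from 0.34 for TPI1 to 0.94 for PGK1. Several of these genes have processed pseudogenes, and RSEM divides reads that map to more than 1 copy between them, so their levels carry this uncertainty.

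At several steps, 1 isoform was called and another was not. The 7 members that were not called were ENO2 (log2 fold change 0.85, adjusted p = 0.0641), ALDOA (0.41, p = 0.0516), HK1 (0.20, p = 0.21), PFKFB4 (-0.04, p = 0.894), LDHB (-0.11, p = 0.606), PDK3 (-0.24, p = 0.33) and PFKM (-0.57, p = 0.161). LDHB, the subunit that favours pyruvate, had medians of 212 CPM in the high-score and 226 CPM in the low-score tumors. PFKM, the muscle form of phosphofructokinase, had medians of 33.3 and 51.9 CPM. The differences between isoforms were not themselves tested, and edgeR called ALDOA (p = 0.0342). Each tumor was also summarised by the mean z-score of the 25 genes. It lay above 0, the mean of all 186 tumors, in 36 of 47 high-score tumors and in 11 of 47 low-score tumors, so 11 high-score tumors had a level of the list below the mean of the cohort.

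**Figure D2:**
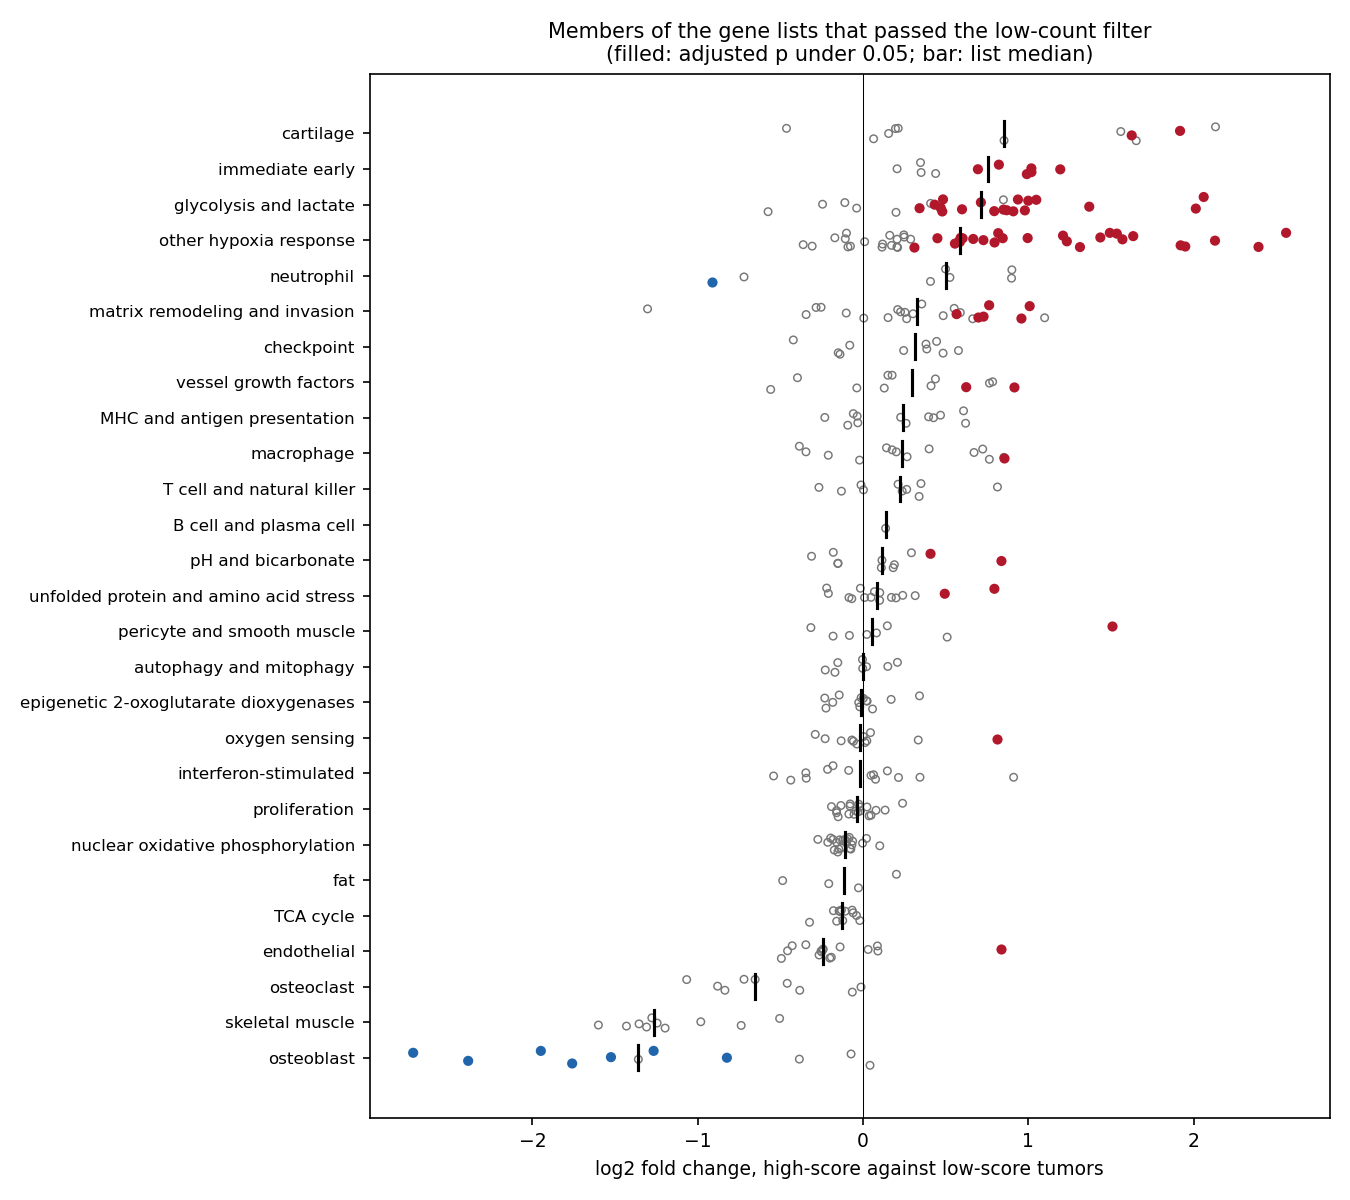
Log2 fold change between high-score and low-score tumors (x axis) of each gene in the lists (y axis) that passed the low-count filter, with filled points for an adjusted p under 0.05, red for higher and blue for lower, open points for genes not called and a black bar at the list median. The glycolysis and hypoxia response lists lie to the right, with medians of 0.71 and 0.58, and the osteoblast list to the left, with a median of -1.36.

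The other genes of the hypoxia response were higher as well. Of the 48 genes in that list, 44 passed the filter, 26 were called higher and 0 lower, and the list median was 0.58. Over all genes tested, 3.59% were called higher and 3.62% lower. The mean z-score over these 44 genes lay above the low-score median in 47 of 47 high-score tumors, and above the highest low-score tumor in 28. It lay above 0 in 39 of 47 high-score and in 3 of 47 low-score tumors.

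NDUFA4L2, EGLN3 and BNIP3 were among the members with the largest differences. NDUFA4L2, a mitochondrial protein induced under low oxygen, ranged from 0.298 to 439 CPM, with a median of 59.8, in the high-score and from 0.914 to 74.2 CPM, with a median of 10.5, in the low-score tumors (log2 fold change 2.56 ± 0.37 (SE), adjusted p = 3.48e-07). BNIP3, a receptor for the removal of mitochondria, ranged from 60.7 to 1409 CPM, with a median of 235, in the high-score and from 9.10 to 209 CPM, with a median of 64.9, in the low-score tumors (log2 fold change 1.95 ± 0.18 (SE), adjusted p = 1.74e-14). Of the 47 high-score tumors, 46 lay above the low-score median of BNIP3 and 26 above every low-score tumor. Its relative BNIP3L had medians of 153 and 72.1 CPM (log2 fold change 1.00 ± 0.12 (SE), adjusted p = 4.73e-10). EGLN3, a prolyl hydroxylase that is itself a target of HIF, ranged from 4.29 to 357 CPM, with a median of 46.1, in the high-score and from 2.75 to 31.2 CPM, with a median of 10.3, in the low-score tumors (log2 fold change 2.13 ± 0.29 (SE), adjusted p = 5.71e-08). Apart from the 3 score genes, EGLN3 had the most high-score tumors above every low-score tumor among genes named here, with 31 of 47. Even so, 8 high-score tumors lay below the low-score median of EGLN3.

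Secreted and surface proteins followed. CA12, a carbonic anhydrase like CA9, ranged from 0 to 473 CPM, with a median of 37.1, in the high-score and from 0 to 98.3 CPM, with a median of 6.74, in the low-score tumors (log2 fold change 2.39 ± 0.64 (SE), adjusted p = 0.0121). STC2, a stanniocalcin hormone, had medians of 30.9 and 9.92 CPM (log2 fold change 1.63 ± 0.26 (SE), adjusted p = 4.77e-06). VEGFA, the main growth factor of vessels, ranged from 15.5 to 539.8 CPM, with a median of 90.7, in the high-score and from 16.8 to 172 CPM, with a median of 51.4, in the low-score tumors (log2 fold change 0.84 ± 0.19 (SE), adjusted p = 0.00229). The difference of VEGFA was thus smaller than those of the genes of the list given before it.

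The remaining called members included HILPDA, a lipid droplet protein (1.57), the collagen cross-linking oxidases LOXL2 (1.54) and LOX (1.21), the transcriptional repressor BHLHE40 (1.49), ANKRD37 (1.44), IGFBP3 (1.31) and the disulfide oxidase ERO1A (1.23), values being log2 fold changes. In LOXL2, 24 of 47 high-score tumors lay above every low-score tumor. Members with smaller called differences were DDIT4, STC1, MIF, FAM162A, P4HA1, BHLHE41, VLDLR, AK4, PLIN2, ZNF395 and KDM4C, from 0.31 to 0.82.

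Several well-known targets of HIF were not called. ANGPTL4, a secreted regulator of lipoprotein lipase, had medians of 147 CPM in the high-score and 208 CPM in the low-score tumors (log2 fold change -0.31 ± 0.24 (SE), adjusted p = 0.472). EGLN1, the main oxygen-sensing hydroxylase, had medians of 73.0 and 78.6 CPM (log2 fold change -0.08 ± 0.12 (SE), adjusted p = 0.763). The demethylase KDM3A (0.25, p = 0.0656), the collagen hydroxylase P4HA2 (0.21, p = 0.454) and the lysyl hydroxylase PLOD1 (0.16, p = 0.521) were not called either, although edgeR called KDM3A (p = 0.0336).

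Among the oxygen-sensing genes themselves, HIF1A was called. Its mRNA ranged from 94.5 to 1333 CPM, with a median of 309.7, in the high-score and from 71.4 to 565 CPM, with a median of 193, in the low-score tumors (log2 fold change 0.81 ± 0.14 (SE), adjusted p = 7.37e-05), with 42 of 47 high-score tumors above the low-score median. The other 11 of the 12 genes that passed the filter were not called, and the list median was -0.02. Over all genes tested, 3.59% were called higher. EPAS1, which encodes HIF-2α, had medians of 109 and 105 CPM (log2 fold change 0.00 ± 0.21 (SE), adjusted p = 0.998). ARNT, the partner of both, had medians of 57.7 and 55.5 CPM (log2 fold change 0.05 ± 0.09 (SE), adjusted p = 0.805). VHL (0.33, adjusted p = 0.0579) and EGLN2 (-0.23, p = 0.0983) were not called, although edgeR called EGLN2 (p = 0.0247).

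**Figure D3:**
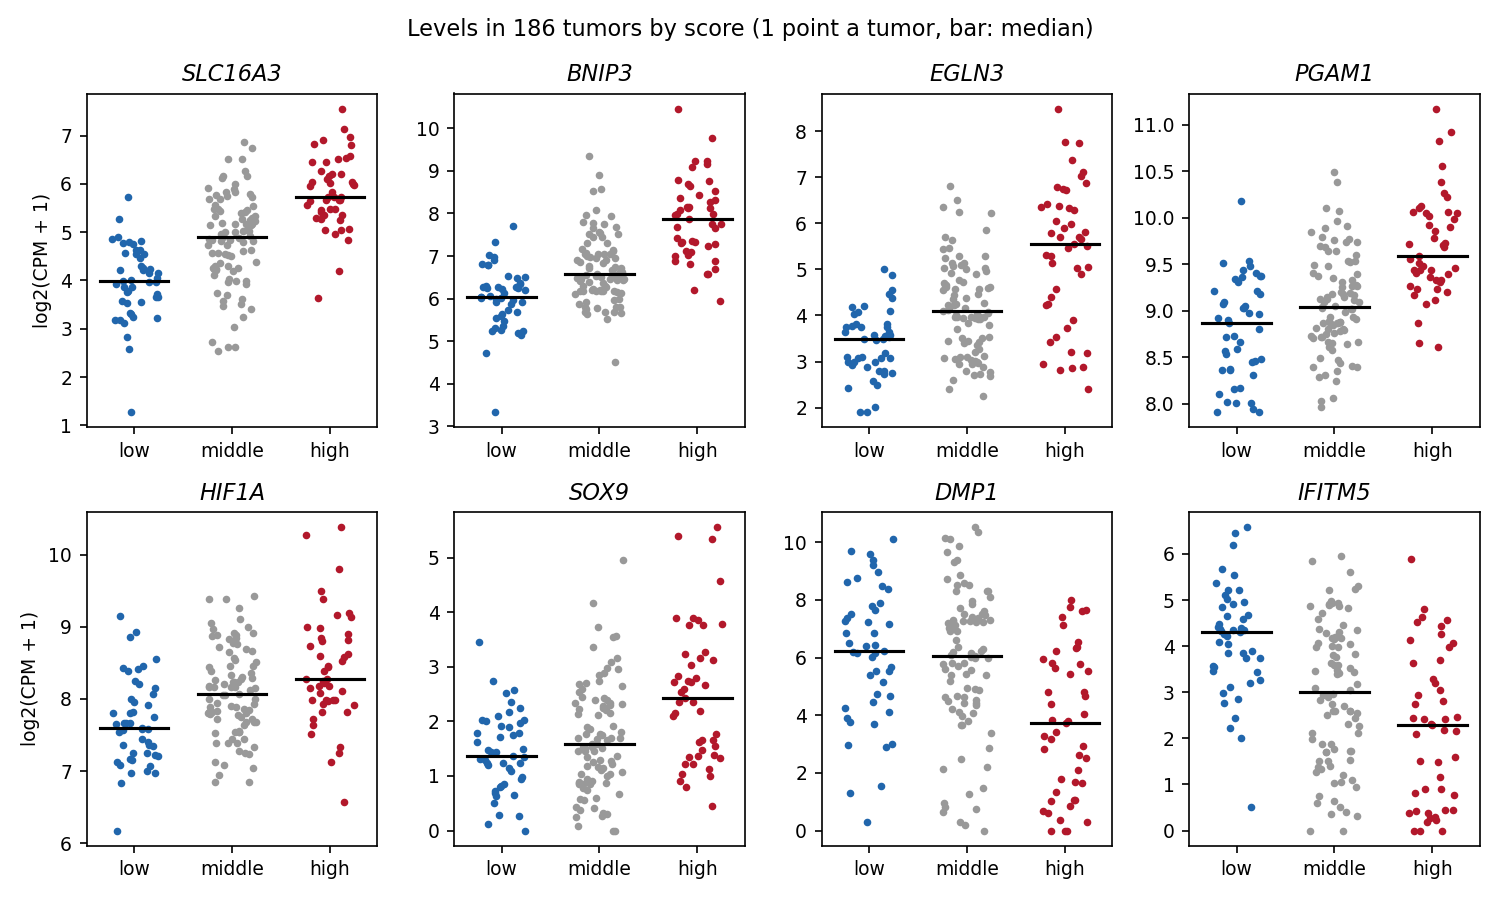
Levels of 8 genes as log2(CPM + 1) (y axis) in 47 low-score, 92 middle-score and 47 high-score tumors (x axis), 1 point a tumor, with a bar at the median of each group. SLC16A3, BNIP3, EGLN3, PGAM1, HIF1A and SOX9 have their highest median in the high-score tumors, and DMP1 and IFITM5 their lowest.

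The middle-score tumors had medians between those of the ends for the 4 genes compared. The median of SLC16A3 was 14.9, 29.1 and 52.4 CPM in low-, middle- and high-score tumors, and that of BNIP3 was 64.9, 93.8 and 235 CPM. For EGLN3 it was 10.3, 16.1 and 46.1 CPM, and for HIF1A 193, 267 and 309.7 CPM. In SLC16A3, BNIP3 and EGLN3, the step from middle- to high-score tumors was the larger of the 2 steps in CPM, a description that was not tested.

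Respiration genes showed no called difference. Of 23 nuclear genes of oxidative phosphorylation and 12 genes of the TCA cycle, limma-voom called 0, with list medians of -0.11 and -0.13. At an unadjusted p under 0.05, 1 and 3 genes remained, and edgeR called 1 and 0 and DESeq2 1 and 1. Over all 13419 genes tested, 3098 had an unadjusted p under 0.05, edgeR called 1379 and DESeq2 1706. ATP5PO, a subunit of ATP synthase, had medians of 211 and 259 CPM (log2 fold change -0.27 ± 0.10 (SE), adjusted p = 0.0742), and the malate dehydrogenase MDH2 had medians of 179.6 and 206 CPM (log2 fold change -0.32 ± 0.12 (SE), adjusted p = 0.068). The values were negative in 21 of 23 and in 12 of 12 genes, against 7415 of 13419 genes tested.

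Immediate early genes, transcription factors and regulators that cells switch on within minutes of a stimulus, were higher. Of 10 genes, 6 were called higher and 0 lower, where 3.59% and 3.62% of all genes tested were, and the list median was 0.76. FOS ranged from 4.95 to 497 CPM, with a median of 46.3, in the high-score and from 6.55 to 158 CPM, with a median of 20.6, in the low-score tumors (log2 fold change 1.19 ± 0.23 (SE), adjusted p = 0.000376), and 44 of 47 high-score tumors lay above the low-score median. The nuclear receptor NR4A1 had medians of 24.7 and 13.0 CPM (log2 fold change 1.02 ± 0.23 (SE), adjusted p = 0.00244), and the phosphatase DUSP1 152 and 77.1 CPM (log2 fold change 0.99 ± 0.18 (SE), adjusted p = 8.63e-05). JUNB (0.82), ZFP36 (0.69) and FOSB (1.02) were also called, FOSB at levels of at most 41.6 CPM and with adjusted p = 0.327 by edgeR and 0.258 by DESeq2. EGR1 was not called (0.35, p = 0.343).

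Of 16 genes of the unfolded protein and amino acid stress responses, only ATF3 (log2 fold change 0.79 ± 0.19 (SE), adjusted p = 0.00489) and the chaperone DNAJB9 (log2 fold change 0.49 ± 0.12 (SE), adjusted p = 0.00489) were called by limma-voom, both higher. Over all genes tested, 3.59% were called higher. The chaperone HSPA5 had medians of 1113 and 1020 CPM (log2 fold change 0.17 ± 0.12 (SE), adjusted p = 0.387), and DDIT3, the transcription factor CHOP, 11.9 and 13.1 CPM (log2 fold change 0.05 ± 0.19 (SE), adjusted p = 0.914). Among 20 proliferation genes, limma-voom, edgeR and DESeq2 called 0, and 0 had an unadjusted p under 0.05. MKI67 ranged from 23.5 to 391 CPM, with a median of 114, in the high-score and from 5.42 to 433 CPM, with a median of 119, in the low-score tumors (log2 fold change 0.04 ± 0.20 (SE), adjusted p = 0.939).

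Genes of late osteoblasts, the cells that mineralise bone matrix, were lower in the high-score tumors by limma-voom. Of 12 genes, 11 passed the filter, 7 were called lower and 0 higher, and the list median was -1.36. Over all genes tested, 3.62% were called lower and 3.59% higher. DMP1, a matrix protein of late osteoblasts and osteocytes, ranged from 0 to 257 CPM, with a median of 12.2, in the high-score and from 0.241 to 1094 CPM, with a median of 74.3, in the low-score tumors (log2 fold change -2.72 ± 0.60 (SE), adjusted p = 0.00181). IBSP, bone sialoprotein, ranged from 0 to 5307 CPM, with a median of 307, in the high-score and from 33.9 to 6814 CPM, with a median of 954, in the low-score tumors (log2 fold change -2.39 ± 0.62 (SE), adjusted p = 0.00887). ALPL, the alkaline phosphatase of mineralisation, ranged from 1.62 to 3745 CPM, with a median of 349, in the high-score and from 182 to 3845 CPM, with a median of 1102, in the low-score tumors (log2 fold change -1.76 ± 0.43 (SE), adjusted p = 0.00513). In all 3 genes the lowest values were in high-score tumors, while the highest values of the groups were closer together for IBSP and ALPL.

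The transcription factors of the lineage were also lower. RUNX2, the master factor of osteoblasts, ranged from 30.4 to 390.3 CPM, with a median of 154, in the high-score and from 92.5 to 1053 CPM, with a median of 259, in the low-score tumors (log2 fold change -0.82 ± 0.16 (SE), adjusted p = 0.00048), and 40 of 47 low-score tumors lay above the high-score median. SP7, or osterix, had medians of 16.2 and 30.8 CPM (log2 fold change -1.27 ± 0.33 (SE), adjusted p = 0.00819), and BGLAP, osteocalcin, 7.56 and 39.3 CPM (log2 fold change -1.95 ± 0.47 (SE), adjusted p = 0.00489). PHEX, a peptidase of osteocytes, was not called (log2 fold change -1.36 ± 0.46 (SE), adjusted p = 0.0515).

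The collagen chains of bone did not follow this pattern. COL1A1 had medians of 24121 CPM in the high-score and 23873 CPM in the low-score tumors (log2 fold change 0.04 ± 0.26 (SE), adjusted p = 0.947), and SPP1, osteopontin, 958 and 1376 CPM (log2 fold change -0.39 ± 0.33 (SE), adjusted p = 0.51). The summed level of the 12 genes, most of which is collagen, ranged from 8253 to 176219 CPM with a median of 53847 in the high-score and from 14238 to 176270 CPM with a median of 55778 in the low-score tumors. In bulk tissue, fewer cells of a type and less RNA per cell cannot be told apart.

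The osteoblast result depended on the test. The edgeR and DESeq2 models describe the mean of the counts, while voom works on their logarithms. RUNX2 and DMP1 were called by limma-voom, edgeR and DESeq2. For IBSP the log2 fold change was -2.39 by limma-voom but -0.66 by edgeR (adjusted p = 0.351), and for ALPL -1.76 and -0.58 (p = 0.281). SP7 and BGLAP also lost their call, with p = 0.201 and 0.106 by edgeR.

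Cartilage genes had a positive median, 0.85, with 2 of the 11 that passed the filter called higher, where 3.59% of all genes tested were. With CA9 left out of the score the median was -0.35 and 0 were called. SOX9, the transcription factor of chondrocytes, ranged from 0.367 to 46.1 CPM, with a median of 4.36, in the high-score and from 0 to 9.94 CPM, with a median of 1.57, in the low-score tumors (log2 fold change 1.62 ± 0.33 (SE), adjusted p = 0.000624). COMP, a matrix protein of cartilage and tendon, ranged from 0.556 to 7382 CPM, with a median of 47.7, in the high-score and from 1.01 to 693 CPM, with a median of 11.7, in the low-score tumors (log2 fold change 1.92 ± 0.54 (SE), adjusted p = 0.0175). COL2A1, the collagen that defines cartilage, was not called by limma-voom (log2 fold change 1.56 ± 0.97 (SE), adjusted p = 0.336), although its highest value was 49245 CPM in a high-score tumor and 2001 CPM among the low-score tumors. ACAN, or aggrecan, had medians of 255 and 218 CPM (log2 fold change 0.15 ± 0.50 (SE), adjusted p = 0.895). Here edgeR called 8 and DESeq2 7 of the 11 genes higher, where 6.21% and 7.99% of all genes were. The count models thus gave more cartilage calls and fewer osteoblast calls than limma-voom.

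Osteoclast genes were not called. All 9 that passed the filter had negative values by limma-voom, with a median of -0.65 and 0 at an unadjusted p under 0.05. The direction depended on the test, as the list median was 0.02 by edgeR and 0.04 by DESeq2. Neither these nor limma-voom called a gene. With CA9 left out of the score the limma-voom median was 0.61, and with NDRG1 left out it was -2.67. ACP5, the tartrate-resistant phosphatase of osteoclasts, ranged from 1.52 to 12532 CPM, with a median of 677, in the high-score and from 3.96 to 8575 CPM, with a median of 1802, in the low-score tumors (log2 fold change -0.84 ± 0.52 (SE), adjusted p = 0.343). CTSK, cathepsin K, had medians of 1086 and 1530.1 CPM (log2 fold change -0.01 ± 0.29 (SE), adjusted p = 0.988).

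By limma-voom, 2 vessel growth factors and 1 endothelial gene were called higher, where 3.59% of all genes tested were. VEGFA, also called higher, was counted in the hypoxia response list. Of 12 vessel growth factors and receptors, ANGPT2, which loosens vessels (log2 fold change 0.92 ± 0.21 (SE), adjusted p = 0.00283), and the peptide APLN (log2 fold change 0.62 ± 0.19 (SE), adjusted p = 0.0301) were called higher and 0 lower. Both edgeR and DESeq2 called 5 of the 12 higher and 1 lower. Over all genes, they called 6.21% and 7.99% higher and 4.07% and 4.72% lower. ANGPT1, the stabilising counterpart of ANGPT2, had medians of 5.41 and 8.03 CPM (log2 fold change -0.56 ± 0.24 (SE), adjusted p = 0.14). Of 16 endothelial genes, only VWF was called by limma-voom, with medians of 97.2 and 67.0 CPM (log2 fold change 0.83 ± 0.24 (SE), adjusted p = 0.0225). PECAM1, present on all endothelium, had medians of 214 and 232 CPM (log2 fold change 0.09 ± 0.21 (SE), adjusted p = 0.849), CDH5 61.3 and 63.6 CPM (log2 fold change -0.19 ± 0.22 (SE), adjusted p = 0.65), and TEK, the receptor of the angiopoietins, 25.9 and 37.0 CPM (log2 fold change -0.49 ± 0.26 (SE), adjusted p = 0.236). The summed level of the 16 endothelial genes ranged from 256 to 4935 CPM with a median of 1049 in the high-score and from 551 to 3868 CPM with a median of 1174 in the low-score tumors.

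Matrix and stromal genes contributed further calls, where 3.59% of all genes tested were called higher and 3.62% lower. Of 24 genes of matrix remodelling and invasion, 6 were called higher and 0 lower, and the list median was 0.33. The hyaluronan receptor CD44 ranged from 34.8 to 1331 CPM, with a median of 119, in the high-score and from 30.7 to 178 CPM, with a median of 62.2, in the low-score tumors (log2 fold change 1.01 ± 0.16 (SE), adjusted p = 3.81e-06), and 45 of 47 high-score tumors lay above the low-score median. The plasminogen activator PLAU (0.96), LOXL3 (0.76), fibronectin FN1 (0.73), the gelatinase MMP2 (0.70) and the integrin chain ITGA5 (0.57) were the others. Among 8 pericyte and smooth muscle genes, TAGLN, an actin-binding protein of smooth muscle, was called (log2 fold change 1.5 ± 0.34 (SE), adjusted p = 0.00263), and ACTA2 was not (log2 fold change 0.51 ± 0.31 (SE), adjusted p = 0.324). Of 11 genes of acid handling, CA13 (log2 fold change 0.84 ± 0.27 (SE), adjusted p = 0.0436) and BSG, the chaperone of lactate exporters (log2 fold change 0.41 ± 0.12 (SE), adjusted p = 0.0231), were called higher and 0 lower.

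In the immune cell lists, limma-voom called 1 macrophage gene higher and 1 neutrophil gene lower. Of all genes tested, 3.59% were called higher and 3.62% lower, and a departure of these lists from that share was not tested. Of 14 macrophage genes, the scavenger receptor MSR1 was called higher (log2 fold change 0.85 ± 0.27 (SE), adjusted p = 0.0361), with adjusted p = 0.113 by edgeR and 0.0659 by DESeq2. CD163 had medians of 71.6 and 57.9 CPM (log2 fold change 0.76 ± 0.33 (SE), adjusted p = 0.144) and CSF1R, the receptor that macrophages depend on, 207 and 242 CPM (log2 fold change -0.21 ± 0.23 (SE), adjusted p = 0.63). Of 7 neutrophil genes that passed the filter, MPO was called lower at a median of 1.55 against 2.89 CPM (log2 fold change -0.91 ± 0.28 (SE), adjusted p = 0.0327), with p = 0.112 by edgeR. Over the 7 genes the median log2 fold change was 0.50 by limma-voom, and 5 had positive values. Both edgeR and DESeq2 called 2 of the 7 higher and 0 lower, where 6.21% and 7.99% of all genes were called higher. The summed levels of the 14 macrophage genes had medians of 2584 and 2950 CPM in high- and low-score tumors, with ranges from 212 to 11033 and from 370 to 10479.5 CPM. The median log2 fold change of the macrophage list was 0.71 within COTC021 and -0.09 within COTC022, and that of the neutrophil list 0.27 and 0.57.

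Lymphocyte genes had low median levels in both groups, with much higher values in some tumors. Of 17 T cell and natural killer genes, 10 passed the filter and limma-voom called 0, with 1 at an unadjusted p under 0.05, while edgeR called 1 and DESeq2 3. Over all 13419 genes tested, 3098 had an unadjusted p under 0.05, edgeR called 1379 and DESeq2 1706. CD3E had medians of 2.99 and 3.12 CPM (log2 fold change 0.35 ± 0.39 (SE), adjusted p = 0.639), with values up to 139 and 185 CPM. The summed level of the 17 genes had medians of 39.2 and 40.1 CPM and reached 1050 CPM in a high-score and 1129 CPM in a low-score tumor. The T cell and natural killer list had a median log2 fold change of 0.61 within COTC021 and -0.19 within COTC022. Of 8 B cell and plasma cell genes, 1 passed the filter. Their summed level had medians of 28.9 and 30.1 CPM in high- and low-score tumors, with highest values of 3609 and 2994 CPM. For the immune signature GS-1, which the paper took from an earlier study, 27 of its genes were examined, and 24 of these had positive values. The signature had a median log2 fold change of 0.27 and 0 genes called by limma-voom and by edgeR. In it, 4 genes had an unadjusted p under 0.05 by limma-voom, and DESeq2 called 1. Its median was 0.67 within COTC021 and -0.01 within COTC022, -0.05 between the 62 highest and the 62 lowest tumors and -0.06 with PTPRC as a covariate.

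In 14 of the lists, with 173 memberships that passed the filter, limma-voom called 0 genes. Of these 173, 20 had an unadjusted p under 0.05, edgeR called 8 and DESeq2 15. Over all 13419 genes tested, 3098 had an unadjusted p under 0.05, edgeR called 1379 and DESeq2 1706. The lists not yet named are MHC and antigen presentation, interferon-stimulated genes, checkpoint genes, autophagy and mitophagy, epigenetic dioxygenases, fat, and skeletal muscle. BNIP3, BNIP3L and KDM4C, called higher above, were counted in the hypoxia response list, so these lists do not cover them. The MHC list had medians of 0.55 within COTC021 and -0.07 within COTC022, the interferon list 0.64 and -0.43, and the checkpoint list 0.39 and 0.22. In the muscle list all 10 genes had negative values, with a median of -1.26, and the summed level reached 78925 CPM in a low-score and 9673 CPM in a high-score tumor. Of 8 erythroid genes, 0 passed the filter, and their summed level was at most 12.4 CPM in high-score and 58.9 CPM in low-score tumors. SPP1 stands in both the osteoblast and macrophage lists, and some immune genes stand in more than 1 list.

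Outside the lists, 828 called genes have a symbol, and 812 of these kept 1 sign in both trials and in both sets of libraries, 395 higher and 417 lower. Genes among the 15 with the largest fold change in each direction are named. They belong to no list, and no theme was tested for them. PTGS2, the inducible prostaglandin synthase COX-2, ranged from 0.189 to 121 CPM, with a median of 14.9, in the high-score and from 0 to 65.2 CPM, with a median of 3.17, in the low-score tumors (log2 fold change 2.30 ± 0.50 (SE), adjusted p = 0.00163). CXCL8, the attractant of neutrophils, had medians of 11.6 and 4.17 CPM (log2 fold change 1.86 ± 0.53 (SE), adjusted p = 0.0174), with a highest value of 6951 CPM in 1 high-score tumor. The largest difference was in ANXA8L1, an annexin, which ranged from 0.149 to 234 CPM, with a median of 29.8, in the high-score and from 0 to 126 CPM, with a median of 4.95, in the low-score tumors (log2 fold change 2.55 ± 0.56 (SE), adjusted p = 0.00163).

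Several of the other higher genes encode secreted proteins. C1QTNF3, a secreted C1q-like protein of cartilage, had medians of 84.4 and 7.28 CPM (log2 fold change 2.44 ± 0.76 (SE), adjusted p = 0.0339). The small leucine-rich proteoglycans PRELP (1.83) and FMOD (1.82), which bind collagen in cartilage and tendon, and the matricellular SMOC1 (1.65) were also higher. Of the others, SEMA3C, a secreted semaphorin (2.12), VGLL3, a transcriptional cofactor (2.11), and GPRC5A (1.77) had adjusted p from 0.0039 to 0.0232, and ARSI (1.99), MOXD1 (1.88) and GAS2 (1.80) from 0.0139 to 0.0426. All the higher genes named here were also called by edgeR and DESeq2.

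The lower genes included IFITM5, SMPD3, SOST and WIF1. IFITM5, a membrane protein of osteoblasts that is mutated in a form of brittle bone disease, ranged from 0 to 58.2 CPM, with a median of 3.91, in the high-score and from 0.427 to 94.8 CPM, with a median of 18.9, in the low-score tumors (log2 fold change -2.37 ± 0.41 (SE), adjusted p = 3.43e-05). SMPD3, a sphingomyelinase needed for mineralisation, ranged from 0 to 852 CPM, with a median of 90.3, in the high-score and from 5.12 to 752 CPM, with a median of 206, in the low-score tumors (log2 fold change -2.62 ± 0.58 (SE), adjusted p = 0.00182). SOST, the Wnt inhibitor sclerostin made by osteocytes, had medians of 0.317 and 2.10 CPM (log2 fold change -2.18 ± 0.68 (SE), adjusted p = 0.0354), and the Wnt inhibitor WIF1 333 and 1074 CPM (log2 fold change -2.14 ± 0.61 (SE), adjusted p = 0.0178). IFITM5 was at 0 counts in 3 high-score and in 0 low-score tumors.

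The largest decrease was in SLC9A2, a sodium-proton exchanger, which ranged from 0 to 64.5 CPM, with a median of 1.40, in the high-score and from 0.274 to 313 CPM, with a median of 12.9, in the low-score tumors (log2 fold change -2.96 ± 0.62 (SE), adjusted p = 0.00102). SLC36A2, which carries amino acids with protons (-2.82), APCDD1L (-2.73), TBC1D16 (-2.45), the cadherin CDH15 (-2.25), PAQR9 (-2.22), PPFIA2 (-2.14), GALNT14 (-2.11), the collagen COL22A1 (-2.10), MPZL2 (-2.09) and the muscle protein titin, TTN (-2.03), completed the 15. TTN reached 13769 CPM in a low-score tumor, beside the muscle genes given above. Of the 15 lower genes, SMPD3, CDH15, PPFIA2, WIF1, COL22A1 and MPZL2 were not called by edgeR or DESeq2, and SOST and TTN not by edgeR. For WIF1 the log2 fold change was -0.20 by DESeq2 (adjusted p = 0.828).

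The comparison was also made within each trial, on parts of the same tumors. Within COTC021, with 24 high- and 20 low-score tumors, the glycolysis list had a median log2 fold change of 0.63 and the other hypoxia response list 0.54. Within COTC022, with 23 and 27 tumors, the medians were 0.59 and 0.53. SLC16A3 had 2.05 in COTC021 and 1.98 in COTC022, and BNIP3 1.97 and 1.94. With fewer tumors, 11 and 14 members of the lists were called higher within COTC021, where 1.18% of all genes were, and 9 and 13 within COTC022, where 0.283% were.

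The osteoblast list had medians of -1.63 in COTC021 and -1.42 in COTC022, with 3 genes called lower in COTC021, where 0.917% of all genes were, and 0 in COTC022, where 0.0745% were. DMP1 had -2.16 (adjusted p = 0.183) in COTC021 and -3.03 (p = 0.0528) in COTC022. The medians within the libraries named with "__" were 0.58, 0.63 and -0.68 for glycolysis, other hypoxia response and osteoblast genes, from 11 and 13 tumors, and 0.66, 0.48 and -1.52 within the others, from 36 and 34. An interaction of the score group with the trial was called for 0 of 13419 genes by limma-voom, with 720 at an unadjusted p under 0.05, and an interaction with the form of the library name for 0, with 562. Without the library highest in ribosomal RNA, 459 genes were called higher and 429 lower.

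**Figure D4:**
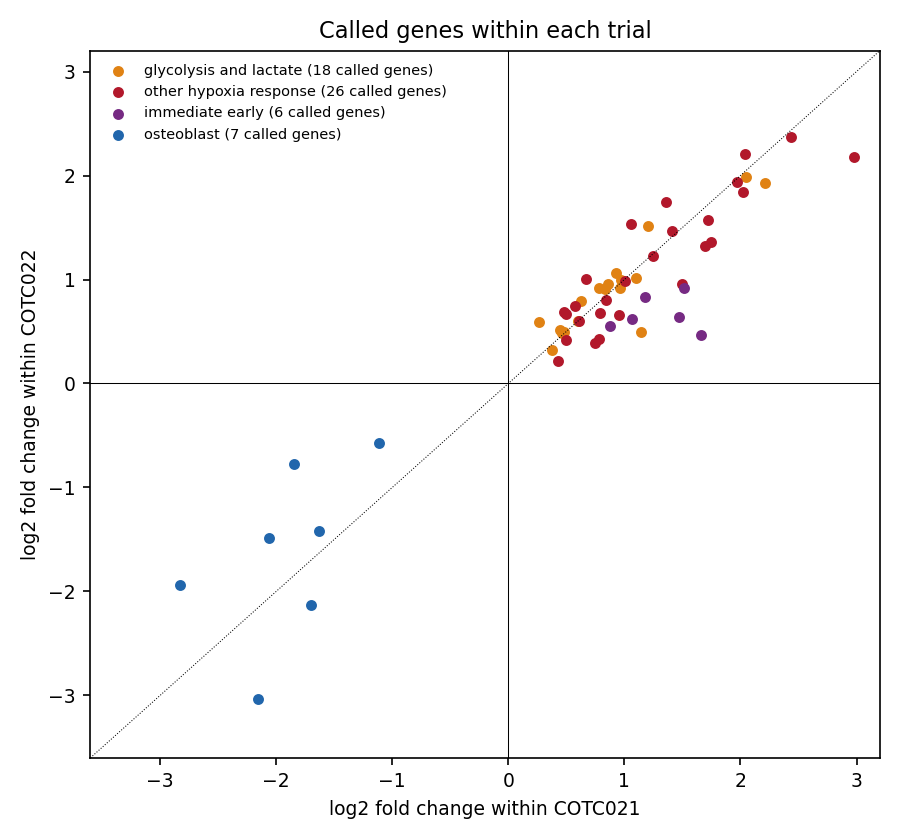
Log2 fold change between high-score and low-score tumors within COTC021 (x axis) and within COTC022 (y axis) of the called genes in 4 lists, 1 point a gene, with a dotted line at equal values. The 18 glycolysis, 26 other hypoxia response and 6 immediate early genes lie in the upper right and the 7 osteoblast genes in the lower left, having been chosen by their call over both trials together.

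Since NDRG1 did not follow CA9 and ADM, the tumors were also ranked by each gene alone, again with the 47 highest against the 47 lowest. These rankings were added after the data had been examined, share tumors with each other and with the score, and are a description of how the score is composed. Of the 47 high-score tumors, 31 were among the highest for CA9, 34 for ADM and 18 for NDRG1. The median of CA9 was 0.798 CPM in the 47 tumors highest for NDRG1 and 2.96 CPM in the 47 lowest, while that of ADM was 9.16 and 6.13 CPM. The median of NDRG1 was 56.1 CPM in the tumors highest and 81.9 CPM in those lowest for CA9.

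The glycolysis and hypoxia genes had larger medians by CA9 and by ADM than by NDRG1, a difference that was not itself tested. By CA9, 16 of 25 glycolysis genes and 24 of 44 other hypoxia genes were called higher, where 12.5% of all genes were, and 2 and 1 were called lower, where 13.6% of all genes were. By ADM, 17 and 22 were called higher and 0 lower, where 4.31% of all genes were called higher and 5.56% lower. By NDRG1, 9 and 8 were called higher and 1 and 2 lower, where 19.6% of all genes were called higher and 19.8% lower. The median log2 fold changes of the lists were 0.50 and 0.45 by CA9, 0.57 and 0.48 by ADM and 0.23 and 0.09 by NDRG1. The median of BNIP3 was 235 CPM in the tumors highest and 75.7 CPM in those lowest for CA9, and 118 and 79.8 CPM for NDRG1. That of EGLN3 was 38.5 and 7.57 CPM for ADM, and 16.0 and 14.6 CPM for NDRG1.

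HIF1A was called by NDRG1 and not by CA9 or ADM, a difference that was not itself tested. HIF1A had a log2 fold change of 0.69 by NDRG1 (adjusted p = 1.53e-05), 0.31 by CA9 (p = 0.125) and 0.42 by ADM (p = 0.068). Of the 10 immediate early genes, 6 were called higher by NDRG1, 6 by ADM and 2 by CA9, with medians of 0.58, 0.63 and 0.04. Over all genes, 19.6%, 4.31% and 12.5% were called higher in these rankings.

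Osteoclast genes moved in opposite directions with CA9 and NDRG1. All 9 were called higher by NDRG1 and all 9 lower by CA9, with medians of 2.86 and -2.40, and 3 were called lower by ADM. Over all genes, 19.6% were called higher by NDRG1, 13.6% lower by CA9 and 5.56% lower by ADM. ACP5 ranged from 47.6 to 12532 CPM with a median of 3385 in the tumors highest for NDRG1, and from 1.52 to 8575 CPM with a median of 489 in the lowest. It ranged from 1.52 to 6239 CPM with a median of 439 in the tumors highest for CA9, and from 3.96 to 18680 CPM with a median of 3468 in the lowest. MMP9, a protease that osteoclasts and neutrophils release, had medians of 2779 and 422 CPM for NDRG1 and 470.3 and 2542 CPM for CA9. The score adds the z-scores of these genes, and in it the osteoclast list had a median of -0.65 with 0 calls by limma-voom.

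The osteoblast and cartilage lists had their largest medians by CA9. By CA9, 9 of 11 osteoblast genes were called lower and 1 higher, and 10 of 11 cartilage genes higher and 0 lower, with medians of -1.58 and 2.56. By NDRG1, 1 osteoblast gene was called in each direction and 5 cartilage genes were called lower and 0 higher, with medians of 0.03 and -1.58. Over all genes, 12.5% were called higher and 13.6% lower by CA9, and 19.6% higher and 19.8% lower by NDRG1. SOX9 had medians of 4.80 and 1.33 CPM for CA9 and 2.15 and 2.74 CPM for NDRG1. Of the 20 proliferation genes, without a call by the score, 11 were called lower by NDRG1, where 19.8% of all genes were, and 0 higher. By CA9, 2 of them were called higher, fewer than the 12.5% of all genes, and 0 lower. Of the 27 GS-1 genes, 11 were called higher by NDRG1, where 19.6% of all genes were, and 2 were called lower by CA9, fewer than the 13.6% of all genes.

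**Figure D5:**
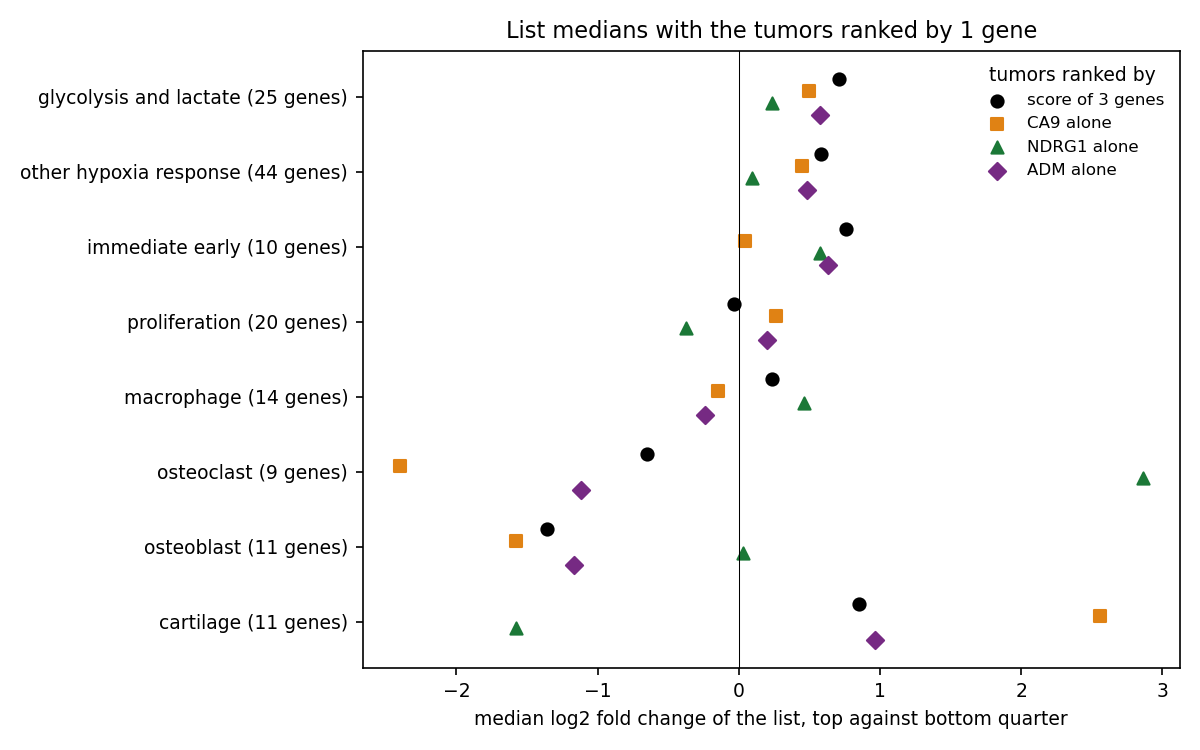
Median log2 fold change of 8 lists (x axis), between the 47 highest and the 47 lowest tumors, with the tumors ranked by the score of 3 genes (black circles), by CA9 (orange squares), by NDRG1 (green triangles) or by ADM (purple diamonds). The osteoclast list lies at -2.40 by CA9 and at 2.86 by NDRG1. The glycolysis and other hypoxia response lists have their smallest medians by NDRG1, at 0.23 and 0.09, and are positive in each ranking.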

How the data were processed

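RNA from primary tumors of 186 dogs was sequenced as stranded mRNA libraries. Per the labels, the authors demultiplexed with bcl2fastq, trimmed with cutadapt, aligned with STAR 2.7.0f and quantified with RSEM 1.3.1, on the canine build GSD_1.0 per their methods, and deposited expected counts without normalization. RSEM divides reads that map to several genes, and 3.07% of the deposited values were not whole. They were rounded for the tests. The table holds 37952 rows, 769 of which share a symbol and were kept apart by identifier, and 198 columns, of which 12 match no sample here and were not used. Totals of 6587634 to 27420867 counts per library set the precision.

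The score is the mean z-score of log2(CPM + 1) of CA9, NDRG1 and ADM, with CPM over the column total. Genes were kept with filterByExpr of edgeR 4.0.16 over all 186 libraries without groups, with large.n of 5, min.prop of 0.5 and min.count of 10, and TMM factors and the voom method of limma 3.58.1 (R 4.3.3) were applied, with trial as a covariate, while CA9, NDRG1 and ADM were left out of all counts of calls. Alternatives used edgeR's quasi-likelihood test and DESeq2 1.42.0. Adjusted p are from limma-voom unless named. The fit was tested on simulated data with known changes. Python 3.11.15, numpy 2.4.6, pandas 2.3.3 and matplotlib 3.10.9 were used.

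The tumors, gene lists and tests were chosen with earlier results of these data known. From each list, called genes with the largest change are named first, and other members are named with their values. Outside the lists, the 15 higher and 15 lower called genes with the largest change, a symbol other than a LOC name and 1 direction in each trial and group of libraries are named, except for a few genes not reported here. P-values set the difference between groups against the spread between tumors of separate dogs, with the groups chosen by genes of the same libraries. Disease-free interval, survival and cluster shares were not analysed here.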

Additional observations from a re-analysis of the deposited data

How the results depend on the processing

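Without a filter on low counts 1706 of 28725 genes were called, 1188 higher and 518 lower, and DESeq2 also called 1706, against 968. Within COTC021, COTC022, the libraries named with "__" and the others, 282, 48, 4 and 586 genes were called, from fewer tumors. Leaving CA9 out of the score gave 1603 and leaving NDRG1 out 3295. Ranking by CA9 alone gave 3497 and by NDRG1 alone 5288. The continuous score over all 186 tumors gave 1787. Asking also for a change above 3-fold left 72. The count was within 1.5 times 968 under the other 13 alternatives, from 756 with the top and bottom 10% of tumors to 1379 with edgeR. The totals without ribosomal RNA, the omission of the library highest in it and the rankings by a single gene were chosen after seeing the data.

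Within COTC021, COTC022 and the libraries named with "__", 11, 9 and 1 glycolysis genes, 14, 13 and 2 other hypoxia genes and 3, 0 and 0 osteoblast genes were called, and by NDRG1 alone, in either direction, 10, 10 and 2. Osteoblast calls were 3 of 7 by edgeR, by DESeq2 and with the top and bottom 10%.

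Of 3408 log2 fold changes of the 142 named genes over the alternatives, 57 changed direction where the gene was called in at least 1 of the fits, all of them with a score that left out or used alone 1 of its genes, and the cause was not tested. By NDRG1 alone these were COL1A1 (-0.75), SLC2A1 (-0.15), HK2 (-0.078), SLC16A1 (-0.56), PDK1 (-0.18), PFKFB4 (0.75), PDK3 (0.51), NDUFA4L2 (-0.60), CA12 (-0.78), LOX (-0.33), ANKRD37 (-0.075), IGFBP3 (-0.52), STC1 (-0.098), MIF (-0.73), FAM162A (-0.0082), P4HA1 (-0.20), SOX9 (-0.61), DMP1 (1.5), NR4A1 (-0.062), ATF3 (-0.14), RUNX2 (0.028), BGLAP (0.11), SPP1 (1.45), COMP (-0.76), ACAN (-2.21), ACP5 (2.91), CTSK (2.22), ANGPT2 (-0.13), APLN (-0.13), VWF (-0.40), LOXL3 (-0.20), MMP2 (-0.61), TAGLN (-0.36), BSG (-0.20), CSF1R (1.60), CXCL8 (-0.11), ANXA8L1 (-0.16), C1QTNF3 (-3.43), SMOC1 (-0.68), SEMA3C (-1.11), VGLL3 (-0.99), ARSI (-1.25), GAS2 (-1.36), WIF1 (1.12), CDH15 (0.14), PPFIA2 (0.77), COL22A1 (0.36) and MMP9 (3.28). By CA9 alone they were VLDLR (-0.011), EPAS1 (-0.95), FOS (-0.092), ZFP36 (-0.23), MPO (0.60) and TBC1D16 (0.013). Without CA9 they were CTSK (0.93) and C1QTNF3 (-0.31), and without NDRG1 EPAS1 (-0.89). Calls were lost in 514 values and gained in 102. Size factors of DESeq2, the omission of the trial, the added library name term, PTPRC as a covariate, totals without ribosomal RNA and the omission of the library highest in it gave 0 changes of direction, as did edgeR, DESeq2 and both trials.

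No paired analysis was possible because each tumor comes from a separate dog and the replicate numbers only name the samples. Depth limits genes below about 10 counts, and bulk tissue limits what can be said of cell types.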
